A study of Mus musculus with 6 samples.

Results

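The macrophage complement and efferocytosis genes are 8 genes of the 19938 measured in these mouse cells: C1qa, C1qb, C1qc, Apoe, Gas6, Mertk, Axl and Adgre1. They were taken by name, and each was read by its only probe set linked to that gene alone. The genes were chosen by their log2 signals in the 3 populations, so the levels of these genes and the differences between populations are given as a description, with no test. Tests are given only for other genes. Of the 8 genes, C1qa, C1qb, C1qc, Apoe, Gas6, Mertk and Axl had their highest signal in DP, while Adgre1 had its lowest signal there and its highest in ProT.

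Gene expression was measured on 6 Affymetrix arrays, 2 for each of 3 populations that all carried NUP98-HOXB4, a fusion protein under which blood progenitors keep dividing in culture. The HSC samples were transduced bone marrow cells expanded with the cytokines IL6 and SCF, which the labels call hematopoietic stem cells. The ProT samples were transduced cells grown with IL7 and the Notch1 ligand DLL4, labelled as committed T cells. The DP samples were double positive T cells that formed after ProT cells were injected into Rag2-/- mice, which cannot make their own mature T and B cells but keep myeloid and stromal cells. The strain and age of the animals, the number of mice behind an array, the organ the DP cells were taken from and any sorting of them were not stated in the labels, which call the cells thymocytes. Nothing in them ties the replicates to separate cultures or animals, so p-values measure the spread between these arrays, which may be technical.

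C1q is the recognition molecule of the classical complement pathway and is built from the chains that C1qa, C1qb and C1qc encode. It binds antibody complexes and dying cells, and tissue macrophages are a main source of it. In efferocytosis, the engulfment of apoptotic cells, the bridging protein Gas6 binds phosphatidylserine on the dying cell and the receptor tyrosine kinases Mertk and Axl on the phagocyte, and apolipoprotein E carries lipid out of macrophages. Adgre1 encodes an adhesion G protein-coupled receptor used as a surface marker of mouse macrophages. In the thymus, most double positive thymocytes die during selection and are cleared by macrophages.

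The labels were checked against defining markers. The co-receptor gene Cd4 differed by 6.86 ± 0.08 on the log2 scale between DP and ProT (limma, adjusted p = 1.08e-06), and the T cell receptor chain gene Cd3g by 8.19 ± 0.09 between ProT and HSC (limma, adjusted p = 1.11e-06), with moderated standard errors here and below. The stem cell factor receptor gene Kit and Cd34 were lower in DP than in ProT, by -3.26 ± 0.10 and -4.22 ± 0.10 (limma, adjusted p = 1.40e-05 and 9.01e-06). Kit was higher in ProT than in HSC, by 0.72 ± 0.10 (limma, adjusted p = 0.00624). The mean of 18 monocyte and granulocyte markers was 10.71 and 11.09 on the HSC arrays. It was 7.70 and 7.12 in ProT and 7.10 and 7.08 in DP. These markers do not single out stem cells, so the HSC label was not checked in that sense. Replicates correlated at a Pearson r between 0.991 (HSC) and 0.997 (DP) over all probe sets. The HSC pair differed by 2-fold or more at 204 genes, the ProT pair at 144 and the DP pair at 0. No detection call was available, and signals below 7.17, the median of all gene values, were not shown to lie above background. A difference that involves such a signal is a difference of measured signal and may understate the change of the transcript.

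The C1q genes lie next to each other on chromosome 4, so the stretches around their starts are shown first. A window of 300 bases, 250 before and 50 after a transcript start, was listed in RefSeq (GRCm38.p6) for C1qb and C1qc. The C1qb window is chr4:136886151-136886450 and the C1qc window chr4:136892865-136893164, both on the minus strand and printed 5′ to 3′ in the direction of the gene. Capitals mark exact matches, on either strand, to GAGGAA, a core of sites bound by PU.1, a factor of myeloid cells, and to TGCTGA, part of the element that MAF factors bind.
C1qb: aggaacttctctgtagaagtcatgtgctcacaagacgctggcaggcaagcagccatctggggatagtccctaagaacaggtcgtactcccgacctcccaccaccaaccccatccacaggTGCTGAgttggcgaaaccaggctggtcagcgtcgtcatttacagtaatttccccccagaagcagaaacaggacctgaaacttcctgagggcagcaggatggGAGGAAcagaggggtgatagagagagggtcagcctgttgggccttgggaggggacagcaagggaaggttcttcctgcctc
C1qc: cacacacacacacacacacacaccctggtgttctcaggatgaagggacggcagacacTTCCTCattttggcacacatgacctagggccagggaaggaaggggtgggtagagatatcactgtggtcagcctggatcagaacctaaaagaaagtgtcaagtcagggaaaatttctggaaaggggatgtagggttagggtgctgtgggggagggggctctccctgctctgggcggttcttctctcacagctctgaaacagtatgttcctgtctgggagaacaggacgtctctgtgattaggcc
C1qb held GAGGAA from 30 bases before the start and TGCTGA from 131 bases before it, and C1qc held GAGGAA on the opposite strand, printed as TTCCTC, from 193 bases before its start. GAGGAA occurred in 28.3% of all 32851 RefSeq windows, TGCTGA in 19.5% and both in 5.36%, and the motifs do not overlap each other in these windows. A match is a description of the letters and not a binding site. For all 8 genes together, 6 had listed windows, 8 in all. GAGGAA was also found in the Axl window and in 2 of 3 Apoe windows, not in the Gas6 or the Mertk window.

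The C1q genes were low in HSC and ProT and higher in DP. C1qb, encoding the B chain, had log2 signals of 6.03 and 6.39 in HSC, 6.60 and 6.07 in ProT, and 9.56 and 9.37 in DP. Both DP arrays lay far above the other 4, and the HSC and ProT arrays overlapped. C1qc, encoding the C chain, had 5.81 and 5.84 in HSC, 5.98 and 5.83 in ProT, and 8.17 and 8.26 in DP, with the same split between DP and the rest. C1qa, encoding the A chain, had 6.20 and 6.04 in HSC, 6.36 and 6.30 in ProT, and 7.26 and 7.21 in DP. All 3 genes lay below 7.17 on every HSC and ProT array and above it on both DP arrays, C1qa only just.

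The size of the DP signal difference varied between the chains. C1qb averaged 9.47 ± 0.13 in DP and 6.34 ± 0.37 in ProT (SD, n = 2 each), a difference of 3.13, or 8.74-fold in signal. C1qc averaged 8.22 ± 0.06 in DP and 5.90 ± 0.11 in ProT, a difference of 2.31, or 4.97-fold. C1qa averaged 7.23 ± 0.03 in DP and 6.33 ± 0.05 in ProT, a difference of 0.91, or 1.87-fold. Whether transcripts or probe sets set these unequal sizes was not tested. Against HSC, the DP differences were 3.25 for C1qb, 2.39 for C1qc and 1.11 for C1qa. The mean of the 3 chains was 8.31 in DP and 6.19 in ProT, and 6.05 in HSC.

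**Figure D1:**
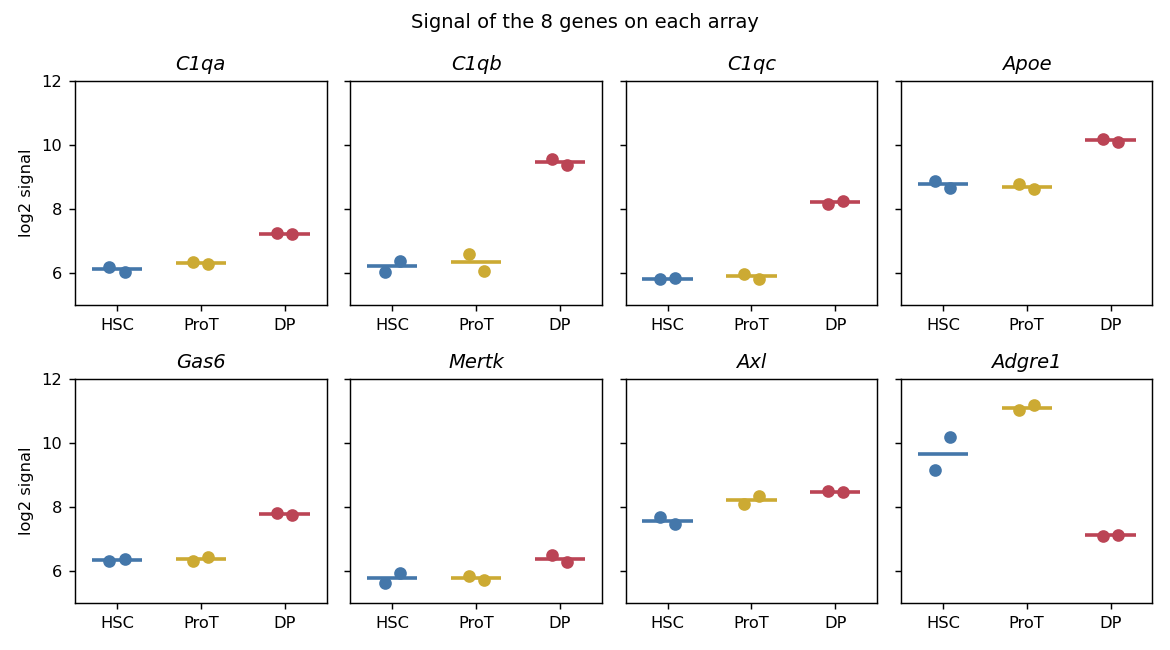
Log2 signal (vertical axis) of each of the 8 genes in HSC, ProT and DP; points are arrays and bars the mean of 2 arrays. The DP points are the highest for 7 genes and the lowest for Adgre1, whose HSC arrays are 1.04 apart.

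The nearest measured genes on either side of the C1q genes did not pass the test. In RefSeq order the measured genes run Lactbl1, C1qb, C1qc, C1qa and Epha8. Lactbl1 had 6.56 and 6.57 in DP, against 6.66 and 6.80 in ProT, a log2 difference of -0.17 ± 0.08 (limma, adjusted p = 0.171). Epha8, an ephrin receptor gene, differed by -0.06 ± 0.08 between DP and ProT (limma, adjusted p = 0.644). Among neighbours of the other genes, Tomm40, a mitochondrial import pore gene beside Apoe, was lower in DP than in ProT by -0.66 ± 0.12 (limma, adjusted p = 0.00887). On the other side of Apoe, the apolipoprotein gene Apoc1 differed by 0.00 ± 0.07 (limma, adjusted p = 0.993). Tmem87b beside Mertk was higher in DP by 2.11 ± 0.16 and Vav1 beside Adgre1 by 0.62 ± 0.07 (limma, adjusted p = 0.000341 and 0.00171). Cyp2s1, a cytochrome gene beside Axl, was lower in DP by -1.35 ± 0.12 (limma, adjusted p = 0.000537).

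**Figure D2:**
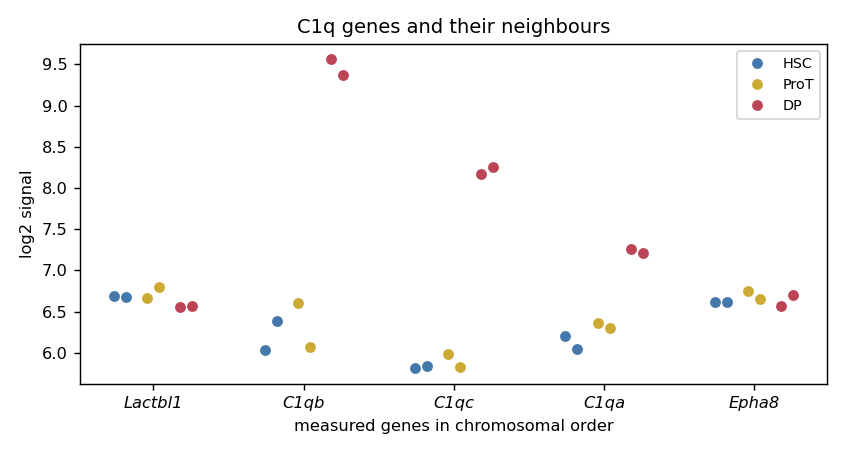
Log2 signal (vertical axis) of the C1q genes and the nearest measured gene on each side, in chromosomal order; each point is an array, coloured by population. The DP arrays stand above the others at C1qb, C1qc and C1qa but are the lowest at Lactbl1 and lie among the others at Epha8.

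Apoe, whose product carries cholesterol and other lipids, was above the median of all genes on every array. It had 8.88 and 8.67 in HSC, 8.77 and 8.63 in ProT, and 10.20 and 10.10 in DP. Apoe averaged 10.15 ± 0.07 in DP and 8.70 ± 0.10 in ProT, a difference of 1.45, or 2.73-fold, and 1.37 against the 8.77 ± 0.15 of HSC (SD, n = 2 each). HSC and ProT overlapped.

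Gas6, the ligand of the receptor family, stood nearly level in HSC and ProT, with 6.32 and 6.38 in HSC and 6.30 and 6.42 in ProT. In DP it had 7.80 and 7.74. The DP mean of 7.77 ± 0.04 was 1.41 above the 6.36 ± 0.08 of ProT, or 2.65-fold in signal, and 1.41 above the 6.35 ± 0.04 of HSC.

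The receptor genes differed less. Mertk, the receptor through which macrophages take up apoptotic cells, had 5.61 and 5.94 in HSC, 5.84 and 5.70 in ProT, and 6.49 and 6.28 in DP, below the median of all genes on each of the 6 arrays. Its mean of 6.38 ± 0.15 in DP was 0.62 above the 5.77 ± 0.09 of ProT and 0.61 above the 5.78 ± 0.24 of HSC. Axl, the other receptor of the set, already differed between ProT and HSC, with 7.68 and 7.46 in HSC, 8.09 and 8.33 in ProT, and 8.48 and 8.45 in DP. The 3 populations did not overlap for Axl, with ProT 0.64 above HSC and DP 0.26 above ProT. The gap between the ProT replicates, 0.24, was about as large as the step from ProT to DP. That DP step was 0.14 without ProT replicate 1 and 0.48 after quantile normalization.

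Adgre1 ran against the others. It had 9.15 and 10.18 in HSC, 11.02 and 11.18 in ProT, and 7.10 and 7.13 in DP. Both DP arrays were the lowest of the 6 and lay just under the median of all genes, and both ProT arrays were the highest. Adgre1 averaged 7.11 ± 0.01 in DP and 11.10 ± 0.11 in ProT, a difference of -3.98, or 15.8-fold lower in DP. Against the 9.67 ± 0.73 of HSC the DP difference was -2.55, and it was -2.03 without HSC replicate 2 and -3.07 without HSC replicate 1. ProT was 1.43 above HSC, by 0.91 without HSC replicate 1 and by 1.95 without HSC replicate 2.

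**Figure D3:**
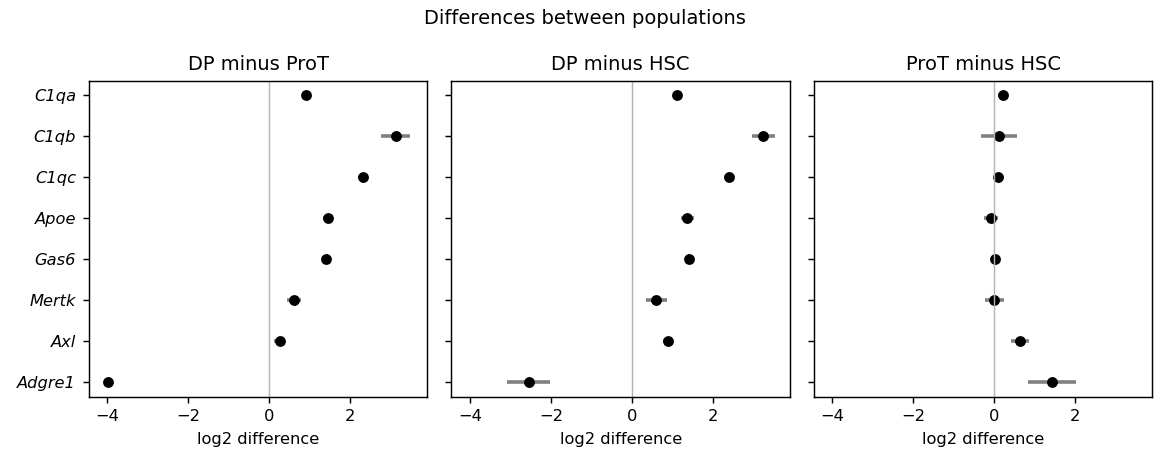
Log2 difference (horizontal axis) of DP minus ProT, DP minus HSC and ProT minus HSC for the 8 genes; points are differences of means and lines run from the smallest to the largest difference between single arrays of the 2 populations. Adgre1 lies at -3.98, -2.55 and 1.43, on the other side of 0 from the rest where DP is compared.

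Read as a set, 7 of the 8 genes were higher in DP than in ProT with no overlap between arrays and 1 was lower, where 36.1% of all genes were higher and 32.9% lower in that way. DP against HSC gave the same counts of 7 and 1, against 35.8% and 32.1% of all genes. These comparisons share the DP arrays, and the counts follow from how the set was chosen. ProT was above HSC without overlap for C1qa, Axl and Adgre1, 3 of 8, where 25.1% of all genes were, and 0 were below it, where 27.0% of all genes were. The median difference over the 8 genes was 1.16 for DP against ProT, 1.24 for DP against HSC and 0.10 for ProT against HSC, and over all genes it was 0.02, 0.02 and -0.01.

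The profiles of the members differed in size. The distance used here was not scaled, so it measures size together with shape. After each gene was centred on its mean, Apoe and Gas6 differed by a root mean square of 0.11 log2 units over the 6 arrays, the smallest distance among the 8 genes. C1qb and C1qc were 0.43 apart, C1qa and C1qb 1.05, and Adgre1 was between 1.88 and 3.10 from each of the others. Over the same 6 arrays, the genes most like the mean of the C1q chains were Krt8, Plekhg2, Lrig1, Trav12-2, Nim1k, Cd79a, Ankrd50, Cacna1e, Dapl1 and Syde1, at distances between 0.053 and 0.138. They include an epithelial keratin gene, a T cell receptor alpha segment and a B cell receptor component. Nearest to Apoe were Magef1, Znrf1 and Nyap1, to Gas6 Tasp1, Dop1a and Gpr83, to Mertk Dpy19l3, Gigyf1 and Zfp526, and to Axl S100pbp, Prex1 and Dnajb1, all at no more than 0.071. Nothing came as close to Adgre1, for which Fgl2, Cysltr1 and Adam8 were at 0.209, 0.265 and 0.293. With 3 pairs of arrays, such likeness describes a pattern of levels and nothing more.

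Other macrophage genes went both ways. Of 29 measured markers in a macrophage list without the 8 genes, 10 rose and 6 fell in DP against ProT, where limma called 32.6% of all genes, 14.5% higher and 18.1% lower. The median of the list was 0.14, beside 0.02 for all genes. Vcam1, an adhesion receptor, had 7.91 and 7.69 in DP, against 5.76 and 5.73 in ProT, and rose by 2.06 ± 0.35 (limma, adjusted p = 0.00676). Tlr7, a sensor of single-stranded RNA, rose by 2.02 ± 0.20, Lyz2, lysozyme, by 1.75 ± 0.33 and Slc40a1, the iron exporter ferroportin, by 1.58 ± 0.29 (limma, adjusted p = 0.000828, 0.00959 and 0.00895). The other rises were those of Ms4a7, Spic, Mrc1, Slco2b1, Siglec1 and Cd5l, between 0.28 and 1.02. Those that fell were Fcgr3, an Fc receptor, by 2.72 on the log2 scale, the integrin gene Itgam by 2.51, and Maf, Hpgds, Cd68 and Hmox1 by between 1.30 and 1.90. Without either DP array, 2 of the 29 rose, Tlr7 and Spic, and 3 fell, Fcgr3, Itgam and Cd68. Without ProT replicate 2 there were 6 rises, and there were 3 among genes that reached the median of all values on 2 arrays.

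Several genes that define tissue macrophages did not pass between DP and ProT, and their DP signals were low or near the median of all genes. Vsig4 and Timd4, receptors of resident macrophages, differed by 0.05 ± 0.09 and 0.14 ± 0.08 between DP and ProT, and Cd163, the haemoglobin scavenger receptor, by -0.05 ± 0.08 (limma, adjusted p = 0.730, 0.230 and 0.677). The high-affinity Fc receptor gene Fcgr1 had 5.93 and 5.88 in DP, against 5.96 and 5.99 in ProT and 6.69 and 7.23 in HSC, and it was lower in DP than in HSC by -1.06 ± 0.17 (limma, adjusted p = 0.00507), a call lost without DP replicate 2. Csf1r, the receptor for the growth factor of macrophages, had 7.28 and 7.16 in DP, against 6.84 and 6.30 in ProT and 10.68 and 11.03 in HSC. The DP difference from ProT was 0.65 ± 0.20 (limma, adjusted p = 0.0575), and from HSC Csf1r fell by 3.63 (limma, adjusted p = 8.24e-05). Siglec1, a sialic acid receptor of macrophages, had 6.62 and 6.71 in DP, against 6.40 and 6.28 in ProT, and rose by 0.32 ± 0.09 (limma, adjusted p = 0.0373). In all, 19 of the 29 markers had a DP mean below the median of all genes, as did 20 in ProT and 15 in HSC.

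**Figure D4:**
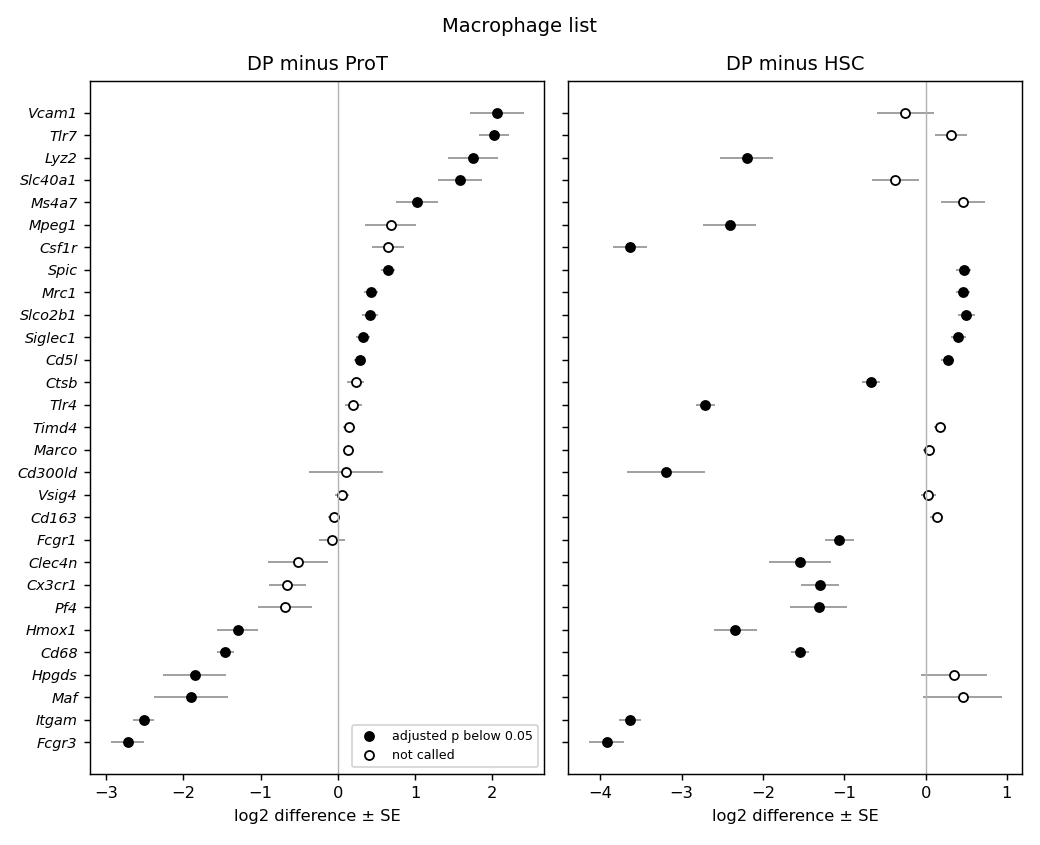
Log2 difference with its standard error (horizontal axis) of the 29 measured macrophage markers for DP minus ProT and DP minus HSC; filled points passed an adjusted p of 0.05. Against ProT the markers spread to both sides of 0, and against HSC 14 of the 29 fell and 5 rose.

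Against HSC, 5 of the 29 markers rose and 14 fell in DP, where 34.9% of all genes were called, 16.0% higher and 18.8% lower, and the list's median was -0.37. The 5 that rose, Mrc1, Slco2b1, Siglec1, Spic and Cd5l, did so by between 0.27 and 0.50. Vcam1, Tlr7, Lyz2 and Slc40a1, which rose most against ProT, were not among these 5. Without DP replicate 1 there were 2 rises, and without DP replicate 2 there were 1 rise and 9 falls. No rise was called among genes that reached the median of all values on 2 arrays. In ProT against HSC, 2 markers rose, Maf and Hpgds, and 12 fell, where 14.7% of all genes were called, 7.85% higher and 6.9% lower. Those that fell include Lyz2, at -3.95 ± 0.33 (limma, adjusted p = 0.000944). Without either ProT array 1 rose. Without either DP array none rose, because the DP arrays then add nothing to the estimate of the spread.

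The HSC replicates themselves were unequal in macrophage genes, though not in these alone. Of the 29 markers, 25 were higher on HSC replicate 2 than on HSC replicate 1, by a median of 0.35, where 50.4% of all genes were higher and the median was 0.00. Adgre1 was on the same side, 1.04 higher on replicate 2, a gap of the size that 1.02% of genes reached. The C1q genes went both ways, with C1qb 0.35 higher on replicate 2, C1qc 0.03 higher and C1qa lower. Among 18 monocyte and granulocyte markers, 16 were higher on replicate 2, by a median of 0.27. Progenitor markers went the other way, with 1 of 10 higher on replicate 2 and a median of -0.33. The part of this imbalance in the Adgre1 differences was not tested beyond the values without each array given above.

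Marker lists of other cell types were compared between DP and ProT as well. Most of the thymic epithelial and B cell markers were higher in DP. Of 16 thymic epithelial markers, 13 rose and 2 fell in DP against ProT, with a list mean of 8.17 and 8.16 on the DP arrays, against 7.30 and 7.29 on the ProT arrays. Ccl25, a thymic chemokine, rose by 3.63 ± 0.13 and Tbata by 3.24 ± 0.09, and Foxn1, the master regulator of thymic epithelium, had 6.38 and 6.36 in DP, against 5.57 and 5.60 in ProT. The change of the greatest size in the list was that of Cdh1, the epithelial cadherin gene, at -4.21 ± 0.07, and the epithelial adhesion gene Epcam was also lower in DP, at -2.60 ± 0.09 (limma, adjusted p = 2.91e-06 and 2.46e-05). Of 13 B cell markers, 9 rose and 1 fell, with a list mean of 6.80 and 6.82 in DP, against 6.24 and 6.23 in ProT, and Cd79a and Ms4a1 rose by 1.93 ± 0.10 and 1.80 ± 0.07. Only 2 B cell markers reached the median of all values on 2 arrays, and 1 of them rose in a fit of such genes. Of 13 fibroblast markers, 7 rose and 2 fell, with a list mean of 7.50 and 7.55 in DP, against 7.19 and 7.11 in ProT. The receptor gene Pdgfrb had the change of the greatest size, at -3.62 ± 0.28, and Lum, a matrix proteoglycan gene, was lower at -1.33 ± 0.08 (limma, adjusted p = 0.000364 and 0.000167). Dcn, another matrix proteoglycan gene, rose by 2.76 ± 0.08, while the collagen gene Col1a1 did not pass at 0.24 ± 0.11. The fibroblast list also holds Thy1, which T cells express too. It was above HSC by 3.38 ± 0.15 in DP and by 2.07 ± 0.15 in ProT. Without ProT replicate 2, DP replicate 1 or DP replicate 2, 4 fibroblast markers rose. Of 12 endothelial markers, 3 rose and 1 fell, with a list mean of 6.87 and 6.89 in DP, against 7.01 and 6.85 in ProT, and 5 rose with centred arrays. Background shares for these and the following lists are those given for the macrophage list in the same comparison.

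The macrophage list mean itself was 6.78 and 6.72 on the DP arrays, against 6.82 and 6.75 on the ProT arrays and 7.51 and 7.92 on the HSC arrays. For 17 dendritic cell markers it was 8.23 and 8.22 in DP, against 8.59 and 8.39 in ProT, with 4 higher and 4 lower (8 lower without either HSC array and 2 without either DP array), and the lineage factor gene Zbtb46 differed by 0.12 ± 0.12. Of the 18 monocyte and granulocyte markers, 5 rose and 4 fell in DP against ProT, and 17 fell and 0 rose against HSC. F13a1 had the change of the greatest size against ProT, at 5.55 ± 0.13 (limma, adjusted p = 9.01e-06). Its ProT difference from HSC was -6.18 ± 0.13 (limma, adjusted p = 6.86e-06). Among 10 mast cell markers, 9 fell and 0 rose in DP against ProT, with a median of -3.86, and 8 rose and 1 fell in ProT against HSC. Their list mean was highest in ProT, as Adgre1 was, at 9.59 and 9.63. It was 7.01 and 6.83 in HSC and 5.89 and 5.84 in DP. The dendritic cell and early T list means were also highest in ProT. The log2 scale has no true 0, so no marker can be called absent. The part of other cells in the DP signal of the C1q genes, Apoe, Gas6, Mertk and Axl was not tested. In such bulk samples, fewer cells of a type and less RNA per cell cannot be told apart.

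**Figure D5:**
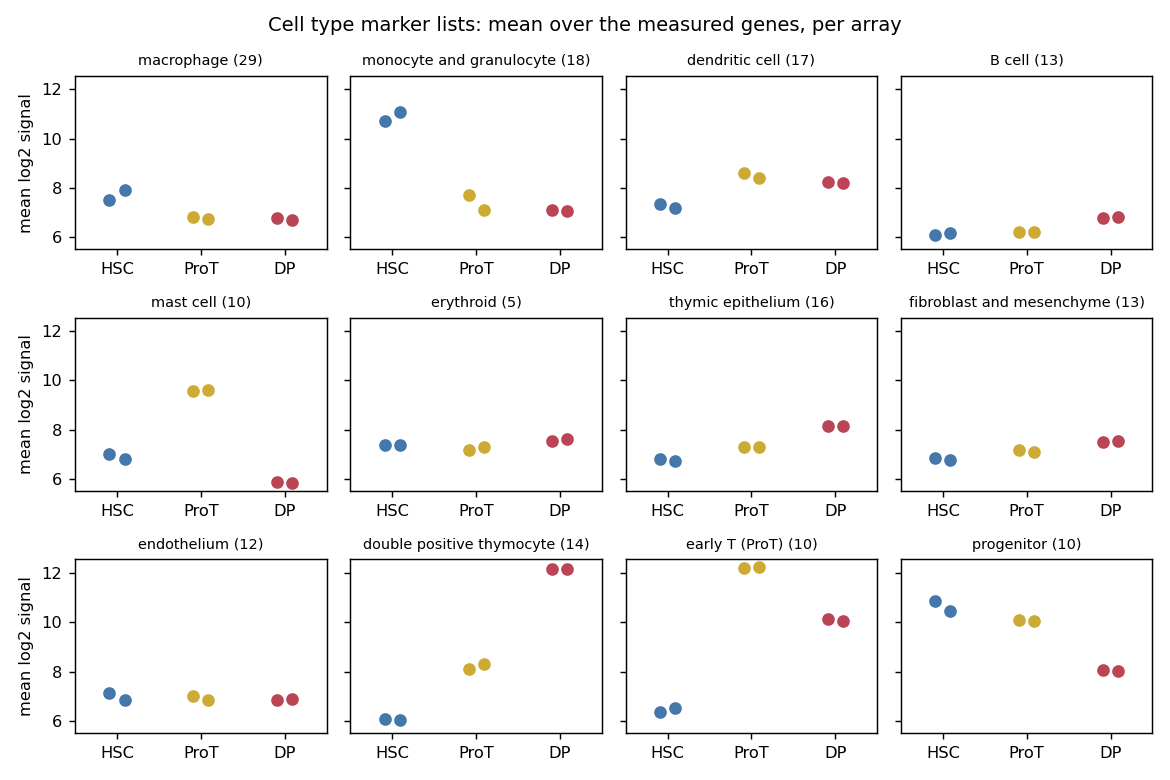
Mean log2 signal (vertical axis) over the measured genes of 12 cell type marker lists on each array, with the number of genes in brackets. The DP arrays are highest for the thymic epithelial, fibroblast, B cell, erythroid and double positive thymocyte lists, and the HSC arrays for the macrophage, monocyte and progenitor lists. The ProT arrays are highest for the dendritic cell, mast cell and early T lists.

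The count of other complement genes that passed depended on the scaling. Of 20 other complement components, 1 rose and 1 fell in DP against ProT, and 18 did not pass. Of all genes, 14.5% rose and 18.1% fell. With arrays centred on their medians, which moved all genes upwards in this comparison, 6 of the 20 were called higher. Fcna, a ficolin that starts the lectin pathway and is made by macrophages, rose by 0.42 ± 0.09, and C8g, of the terminal complex, fell to 0.498 of its ProT signal (limma, adjusted p = 0.0176 and 0.000791). Fcna was not called without ProT replicate 2 or DP replicate 2, and 2 components rose without either HSC array. C1s1, a protease that works with C1q, differed by 0.28 ± 0.10 and did not pass (limma, adjusted p = 0.0869). Of the 20 components, 20 had a DP mean below the median of all genes. Against HSC, 1 rose and 4 fell, where 16.0% of all genes rose and 18.8% fell. Those that fell include Fcnb, a ficolin of granulocytes and monocytes, at -3.15 ± 0.24, and C1ra, the other protease that joins C1q, at -0.56 ± 0.11. The rise was not called without either HSC array or either DP array, and 2 fell without DP replicate 1.

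Complement regulators and receptors went both ways, with 5 of 20 higher and 7 lower in DP against ProT, where 14.5% and 18.1% of all genes were. Cd93, a surface protein of progenitors and myeloid cells, fell by 3.14 on the log2 scale, Cd59a, an inhibitor of the terminal complex, by 3.32, Lrp1, a scavenger receptor, by 2.52 and Itgam, a chain of complement receptor 3, by 2.51. Against HSC, 6 rose and 9 fell, where 16.0% of all genes rose and 18.8% fell. In ProT against HSC, 2 rose and 5 fell (3 without either DP array), and Itgax, a chain of complement receptor 4, rose by 3.22 ± 0.11.

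The other receptor and the other ligand of the Gas6, Mertk and Axl system did not pass the test. Tyro3, the remaining receptor of the family, had 6.88 and 6.93 in DP, against 6.97 and 6.95 in ProT and 6.98 and 6.93 in HSC, and differed by -0.06 ± 0.07 between DP and ProT (limma, adjusted p = 0.607). Pros1, encoding protein S, the other ligand, differed by 0.27 ± 0.13 (limma, adjusted p = 0.187) and stayed below the median of all genes on every array. Of 13 measured genes around the pathway, 3 rose and 2 fell in DP against ProT, where 14.5% of all genes rose and 18.1% fell. The median of the 13 was 0.09, and with arrays centred on their medians 5 rose and 1 fell. Plcg2, a phospholipase of receptor signalling, fell by 3.62 (limma, adjusted p = 1.42e-05), and Socs1, a feedback inhibitor of cytokine signalling, rose by 0.40 ± 0.08. None of the 13 rose without DP replicate 1 and 1 rose without DP replicate 2, and 1 fell without either ProT array or DP replicate 2. The rise of Socs1 against HSC was 2.80 ± 0.08, most of it present in ProT, where it was 2.40 ± 0.08.

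Other receptors and bridging proteins for apoptotic cells were more often lower in DP. Of 29 measured, 3 rose and 10 fell against ProT, where 14.5% of all genes rose and 18.1% fell. Against HSC, 5 rose and 14 fell, where 16.0% of all genes rose and 18.8% fell. Without either ProT array or DP replicate 2, 1 rose against ProT, and against HSC 3 rose without HSC replicate 2 and 2 without DP replicate 2. The DP difference from ProT was -3.40 ± 0.10 for Anxa1, a phosphatidylserine-binding protein, -3.16 ± 0.09 for Tyrobp, the adaptor of Trem2, -2.82 ± 0.08 for Havcr2, a phosphatidylserine receptor of the TIM family, and -2.80 ± 0.30 for Itgb3, an integrin chain. Thbs1, a bridging protein, fell by 5.87 against HSC and Cd14 by 3.67. Of 22 genes of the engulfment machinery, 3 rose, 4 fell and 15 did not pass in DP against ProT, with a median of -0.01. Without either HSC array, after quantile normalization and with centred arrays 5 rose, and without DP replicate 2, 1 rose. Ctsl, a lysosomal protease that thymic epithelium also uses, rose by 1.47 ± 0.08, and Dnase2a, the nuclease that digests engulfed DNA, fell by 2.38. Among 12 genes for signals on or from dying cells, Ano6, a phospholipid scramblase, rose by 2.46 ± 0.10 and P2ry2, a nucleotide receptor, fell by 1.64, while the other 10 did not pass. Without either HSC array 3 rose, and without ProT replicate 1, 2 fell.

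Genes of lipid and cholesterol handling were split, with 7 of 21 higher and 6 lower in DP against ProT, and 9 and 5 against HSC. Of all genes, 14.5% were higher and 18.1% lower against ProT, and 16.0% and 18.8% against HSC. Without DP replicate 2, 4 rose against ProT, and without either DP array 3 fell against HSC. Abca1, which loads cholesterol onto apolipoproteins, had 10.04 and 9.95 in DP, against 8.56 and 8.31 in ProT and 6.88 and 7.43 in HSC. It rose by 1.56 ± 0.19 against ProT and by 2.84 ± 0.19 against HSC (limma, adjusted p = 0.00187 and 0.000155). Lipa, the lysosomal lipase, rose by 2.41 ± 0.08 and Mylip, which degrades the LDL receptor, by 0.96 ± 0.10 against ProT, while Pparg, a lipid-sensing nuclear receptor, fell by 1.12. Abcg1, another cholesterol exporter, was higher by 3.03 ± 0.10 in DP against HSC and by 2.56 ± 0.10 in ProT against HSC. Pltp, which transfers phospholipid between lipoproteins, rose by 3.04 ± 0.11 in ProT against HSC, where Apoe differed by -0.07.

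Adgre1 is one of a family of adhesion receptors, whose other members showed no common direction. Of 8 measured, 2 rose and 4 fell in DP against ProT, where 14.5% of all genes rose and 18.1% fell. Adgre5, encoding CD97, had 11.87 and 11.87 in DP, against 9.95 and 9.83 in ProT, and rose by 1.98 ± 0.08 (limma, adjusted p = 2.80e-05). Adgrg3 and Adgrg1 fell by 3.23 and 2.22 on the log2 scale. Adgre4, another receptor of the ADGRE group, did not pass at 0.25 ± 0.57 (limma, adjusted p = 0.804), and its HSC arrays had 5.22 and 7.15, higher on replicate 2 as for Adgre1.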

How the data were processed

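Per the labels' protocols, total RNA was labelled with biotin and hybridized to Affymetrix arrays. The authors deposited a log2 signal for 35556 probe sets on 6 arrays, between 3.22 and 14.38, made with RMA and Partek per the submitters' processing notes. Their versions and settings were not stated there. Array medians lay between 6.73 and 6.91. The number of arrays limits the precision.

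The platform table linked 21789 probe sets to exactly 1 gene, covering 19938 genes, and 21698 had a gene ID in the RefSeq table, with 0 symbols changed. Of the genes, 999 had several probe sets, and the one with the highest mean was used. Left out were 1621 probe sets listed under more than 1 gene and 12146 with no gene listed. No filter on signal was applied.

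All 6 arrays were fitted in limma 3.58.1 (R 4.3.3) with a mean per population and no replicate block, then eBayes (3 residual and 2.83 prior degrees of freedom). Calls needed an adjusted p (Benjamini-Hochberg, over the 19938 genes) below 0.05. Adjusted p-values are from this fit. The fit was run as a code check on simulated arrays with far fewer changed genes than were called here. That run does not measure the share of false calls in these data. The 8 genes and the 20 lists (340 entries, 312 measured, some genes in several lists) were chosen with earlier results of these data known. Genes of a list were named by rule: up to 4 called and 2 not called by size of change in a comparison, and any gene of the macrophage list and the receptor pathway list. Foxn1, Col1a1 and Zbtb46 were named as defining markers. C1ra, Adgre4's HSC arrays and neighbouring genes are given by position in the complex, family or genome. Likeness is the root mean square difference of centred profiles, leaving out predicted and RIKEN clone symbols. The alternatives were also run on the other lists, a choice made after seeing the data. Python 3.11.15 with pandas 2.3.3 and numpy 2.4.6 prepared the tables. Protein sequences are not used here.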

Additional observations from a re-analysis of the deposited data

How the results depend on the processing

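Of the 8 genes, all kept the sign of the DP differences after quantile normalization, centring of arrays on their medians and leaving out each array. The mean C1q difference of DP against HSC was 2.33 after quantile normalization, against 2.25 as reported. It ranged from 2.22 to 2.29 over the arrays left out, and that of DP against ProT from 1.99 to 2.24. For C1qb, Apoe, Gas6 and Mertk, the sign of ProT against HSC depended on which array was left out. Each of the 8 genes has 1 probe set, so other rules for probe sets changed nothing. When an array is left out, its population has 1 array, assumed to vary like the others.

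Leaving out each array, the genes called ranged from 3531 to 7408 in DP against ProT (1467 to 3282 higher, 2047 to 4126 lower), from 4301 to 6934 in DP against HSC (1940 to 3188 higher, 2361 to 3862 lower) and from 1792 to 3982 in ProT against HSC (1013 to 1988 higher, 779 to 1994 lower). The macrophage markers called higher ranged from 2 to 12, 1 to 6 and 0 to 2 in these comparisons, and those called lower from 3 to 8, 9 to 16 and 10 to 15. With a fit of only the 2 populations compared, ProT against HSC gave 1792 genes, 1013 higher and 779 lower, and 0 macrophage markers higher. The filter on dim genes left 3 macrophage markers higher in DP against ProT and 0 in DP against HSC, and it tests fewer genes. Centring on array medians moved the median of all genes to 0.13 in DP against ProT and called 4522 genes higher, 60.2% of the calls against 44.6%. In ProT against HSC it gave 42.0% against 53.2%. No called list gene changed sign while staying called under these alternatives.

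Between populations, the deviations of samples with the same replicate number correlated at 0.0584, -0.0222 and -0.0428. With 2 arrays per population, this cannot show whether such samples shared a culture, an animal or a batch. With a replicate block, 6268, 6757 and 2845 genes were called, against 6506, 6953 and 2940, and 8, 4 and 2 macrophage markers were higher.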
